A study of Mus musculus with 2 samples.

Results

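The genes described here are the nuclear genes of oxidative phosphorylation in mouse intestinal crypt and fibroblast co-cultures. They were chosen by name alone, as every row whose symbol starts with Ndufa, Ndufb, Ndufc, Ndufs, Ndufv, Uqcr, Cox4, Cox5, Cox6, Cox7, Cox8 or Atp5, with pseudogene symbols (-ps) left out. This rule found 86 of the 18309 gene symbols of the series, 85 in the Ptger4-ON table and 86 in the Ptger4-OFF table, where Cox8b is listed in addition. Of the 86, 77 encode subunits: 36 of complex I, 8 of complex III, 18 of complex IV and 15 of ATP synthase. The prefixes also took in 7 complex I assembly factors (Ndufaf1 to Ndufaf7), which help to build the complex without staying in it, and Atp5s and Atp5sl, which are not subunits of the enzyme. The name of the group therefore holds for 77 of its members, and complex II (the Sdh genes) and cytochrome c1 (Cyc1) lie outside the rule.

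Oxidative phosphorylation takes place in the inner mitochondrial membrane. Complex I and complex II feed electrons from NADH and succinate into ubiquinone, complex III passes them to cytochrome c, and complex IV hands them to oxygen, while complexes I, III and IV pump the protons whose return through ATP synthase drives ATP production. Each complex joins subunits encoded in the nucleus with, except for complex II, a few encoded in mitochondrial DNA. Core subunits carry the redox centres or the catalytic sites, and the small accessory subunits stabilise or tune the enzyme. In the gut, absorptive enterocytes are rich in mitochondria.

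Gene expression was read by Drop-seq, which captures single cells in droplets and counts tagged mRNA molecules (UMIs). Both cultures combined fibroblasts and crypts of C57BL6 mouse small intestine (age 10 weeks) in Organoid Growth Media. The Ptger4-ON culture received DMSO and grew as spheroids, and the Ptger4-OFF culture received ONO-AE3-208, an antagonist of the prostaglandin E2 receptor EP4 (gene Ptger4), at 10 µM in DMSO every other day and grew as budding organoids. Each condition is 1 library made from 6 pooled cultures, so no difference has a replicate check, no test between conditions was possible, and the 95% intervals given with values cover counting error only. Because 1 library stands for each condition, the condition and the library cannot be told apart.

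After filtering, 876 Ptger4-ON and 1560 Ptger4-OFF cells were kept, with no barcode shared between them. Clusters were assigned to an epithelial-like class (588 and 1200 cells, 5533875 and 7603583 UMIs) and a fibroblast-like class (288 and 360 cells, 1756918 and 1839148 UMIs). The 12 fibroblast markers summed to 97.6 and 109 CPM (UMIs per 1000000 UMIs of the cells summed) in the epithelial-like class against 34318 and 34075 CPM in the fibroblast-like class. For the 10 epithelial markers the fibroblast-like class had 184 and 264 CPM and the epithelial-like class 15935 and 13246 CPM. Epithelial clusters are called fetal-like (led by Clu, Msln and Ly6a), cycling (Top2a, Mki67), Nrn1-led (Nrn1, Ttr, Aqp4), Paneth and goblet (Lyz1, Muc2) and enterocyte-like (Fabp1, Apoa1, Sis), and the fibroblast clusters Grem1-type and Mgp-type. A further epithelial cluster, enteroendocrine-like (Chgb, Gip, Cck), held 1 and 17 cells. It is counted in the epithelial-like class but is left out where epithelial states are compared. Its member shares were 4.43% and 3.87% of UMIs. Only 1 of the 86 genes was among the 2000 variable genes from which the clusters were built.

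A promoter window of 250 bases before the RefSeq start site (build GRCm38.p6) was available for 69 of the 86 genes. Of these, 4 are shown as examples from the patterns described in the results. Cox7a1 and Cox7a2 encode alternative forms of the same complex IV subunit, and Cox7a1 is the member that varied most between epithelial states. Their windows lie at chr7:30183921-30184170 (plus strand) and chr9:79759854-79760103 (minus strand), and capitals mark CpG dinucleotides, 4 in Cox7a1 and 14 in Cox7a2, against a median of 14 over the 69 windows and of 6 over all 27025 promoters of the table.
Cox7a1: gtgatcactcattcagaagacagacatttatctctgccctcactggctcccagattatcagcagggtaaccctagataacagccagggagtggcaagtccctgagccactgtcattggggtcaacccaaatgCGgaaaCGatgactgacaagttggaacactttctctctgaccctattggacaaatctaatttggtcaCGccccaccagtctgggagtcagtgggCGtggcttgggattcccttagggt
Cox7a2: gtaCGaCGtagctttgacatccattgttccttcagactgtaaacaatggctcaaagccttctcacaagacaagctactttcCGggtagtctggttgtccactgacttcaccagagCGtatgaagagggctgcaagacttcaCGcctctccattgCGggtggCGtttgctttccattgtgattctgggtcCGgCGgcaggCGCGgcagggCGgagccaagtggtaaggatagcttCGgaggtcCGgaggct
Ndufa8, an accessory subunit of complex I, and Atp5k, the small e subunit of ATP synthase, were respectively higher and lower in Ptger4-OFF in both cell classes. Both windows, chr2:36049339-36049588 and chr5:108434400-108434649 (both minus strand), hold GCGCATGC, the core of the site of the mitochondrial gene regulator NRF1, here in capitals and in Ndufa8 on the opposite strand, where it reads as its reverse complement.
Ndufa8: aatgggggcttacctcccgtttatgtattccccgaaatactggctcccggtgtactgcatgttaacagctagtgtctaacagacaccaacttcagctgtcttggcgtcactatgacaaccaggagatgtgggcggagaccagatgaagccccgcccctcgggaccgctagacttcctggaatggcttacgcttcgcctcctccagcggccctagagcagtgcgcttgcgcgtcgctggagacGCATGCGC
Atp5k: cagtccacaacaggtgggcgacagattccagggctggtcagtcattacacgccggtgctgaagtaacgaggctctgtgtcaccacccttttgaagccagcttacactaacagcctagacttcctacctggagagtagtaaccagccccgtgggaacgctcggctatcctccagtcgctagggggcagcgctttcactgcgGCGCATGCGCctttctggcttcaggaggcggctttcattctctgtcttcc

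The NRF1 core, read on both strands, starts 8 bases before the RefSeq start site of Ndufa8. In Atp5k it occurs on both strands in overlapping copies that start 50 and 48 bases before the RefSeq start. The GENCODE starts of Ndufa8 (chr2:36049406) and Atp5k (chr5:108434448) lie inside these windows, so the distances hold for the RefSeq starts only. The NRF1 core was found in 8 of the 69 member windows (11.6%) and in 2.32% of all promoters of the same length. The core of ETS factor sites such as that of GABPA (CCGGAAG, both strands) was found in 11 of the 69 (15.9%) against 7.05% of all. The core of sites for the estrogen-related receptors (AAGGTCA, both strands) stood in 5 of 69 (7.25%) against 4.05%. The other motifs of the 5 searched were the hypoxia response core (ACGTG, both strands), in 13 of 69 (18.8%) against 16.6%, and the HNF4 core (CAAAGTCC, both strands), in 0 of 69 against 1.22%. These are letter matches in windows that are richer in CpG than the average promoter. The genes with an NRF1 core included Ndufa8 and Atp5k, whose ratios lay on opposite sides of 1. The windows of Ndufv2, Uqcrfs1 and Cox7c, whose epithelial-like ratios lay further from 1 than those of this pair, held none of the 5 motifs.

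The 86 genes together made up a share of the mRNA that differed between cell states in both libraries, and between the libraries mainly in the enterocyte-like and the secretory state. They took 3.16% of UMIs in fetal-like cells of Ptger4-ON and 3.23% in those of Ptger4-OFF. In cycling cells they took 4.41% and 4.45%, and in Nrn1-led cells 4.55% and 4.65%. Both fibroblast types were lower, at 2.40% and 2.40% in Grem1-type and 2.25% and 2.25% in Mgp-type cells. Paneth and goblet cells (3.88% and 4.41%) and enterocyte-like cells (3.83% and 4.75%) were higher in Ptger4-OFF. The summed OFF/ON ratio was 1.14 (1.12 to 1.16) in Paneth and goblet cells and 1.24 (1.21 to 1.27) in enterocyte-like cells, against 1.02 in fetal-like, 1.01 in cycling and 1.02 in Nrn1-led cells.

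**Figure D1:**
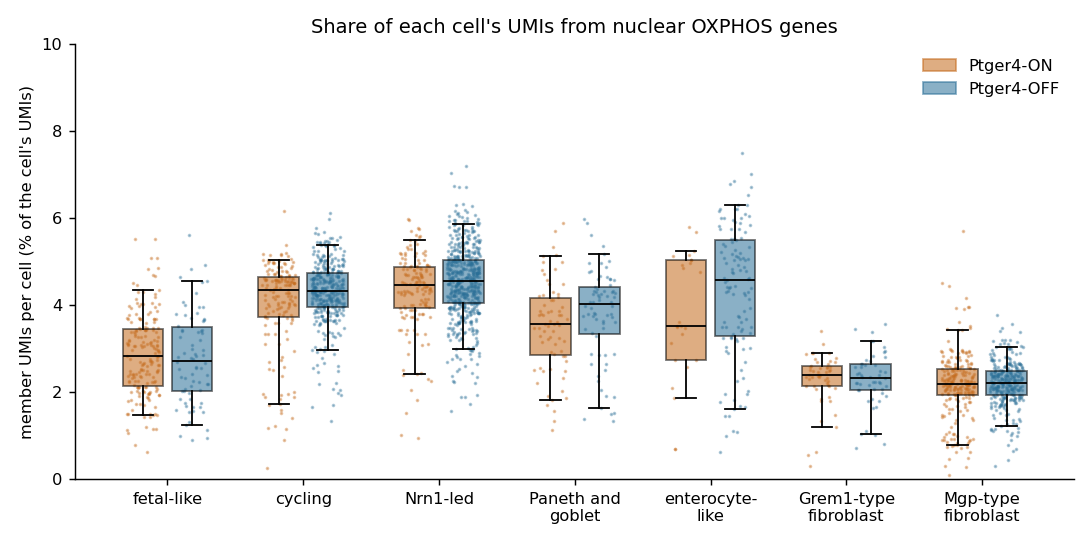
Share of each cell's UMIs that came from the 86 genes (vertical axis, percent), by cell state and library (points are cells, boxes span the quartiles with the median as a line, whiskers the 5th to 95th percentile). Fetal-like cells lie below the other epithelial states in both libraries (medians 2.82% and 2.73%, against 4.35% and 4.34% in cycling cells), and both fibroblast types lie lowest.

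The enterocyte-like and secretory values rest on few cells of Ptger4-ON. That library held 25 enterocyte-like cells, and 1 barcode of 92081 UMIs gave 41.7% of their UMIs. Its own share was 3.47%, and without it the Ptger4-ON value was 4.09% against 4.75% in Ptger4-OFF. In Paneth and goblet cells the deepest Ptger4-ON barcode gave 21.0% of UMIs, and without it the shares were 3.72% and, without the deepest Ptger4-OFF barcode, 4.38%. With equal weight for each cell, fetal-like cells had 2.86% and 2.79%, and enterocyte-like cells 3.76% and 4.34%. Both these weightings were chosen after the data were seen. In fetal-like cells the sign of the small difference between the libraries turned with equal weight, and fetal-like cells stayed the lowest epithelial state in each library either way. Very deep barcodes were not confined to these states. Those over 50000 UMIs gave 22.9% of epithelial-like UMIs in Ptger4-ON (16 barcodes) and 4.97% in Ptger4-OFF (6 barcodes). In fetal-like cells they gave 30.4% and 16.0%, and without them the fetal-like shares were 2.89% and 2.98%. In cycling cells they gave 21.9% and 1.77%, and the shares without them were 4.34% and 4.44%.

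Fetal-like cells had the lowest level of most members. Of the 80 members with at least 200 UMIs over the epithelial-like class, 65 were lowest in fetal-like cells. Another 12 were lowest in enterocyte-like cells and 3 in Paneth and goblet cells. In each library separately, 49 were lowest in fetal-like cells. The share of all genes lowest in fetal-like cells was not counted, so these counts have no background beside them. The sum over members in fetal-like cells was 0.717 (0.709 to 0.724) of that in cycling cells in Ptger4-ON and 0.726 (0.716 to 0.736) in Ptger4-OFF. In Ptger4-ON 81 of 81 measured members were below their cycling level, and in Ptger4-OFF 80 of 81 were. Of all genes measured, 5314 of 9935 in Ptger4-ON and 5498 of 9715 in Ptger4-OFF were below theirs. The median log2 ratio of fetal-like to cycling cells was -0.50 and -0.49 over members, and -0.05 and -0.13 over all genes measured. Fetal-like cells also had the lower share of cytosolic ribosomal protein mRNA (8.22% and 6.58%, against 10.7% and 9.43% in cycling cells). Their median share of UMIs from all mitochondrially encoded genes, the value used to filter cells, was lower too (1.17% and 1.66%, against 2.68% and 3.19%). The 6 RNA-quality genes (Malat1, Neat1, Fos, Jun, Hspa1a, Hspa1b) summed to 8145 and 9339 CPM in fetal-like and 3331 and 3275 CPM in cycling cells. The part of these values in the member values was not tested.

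The sum of each of the 4 complexes was lowest in fetal-like cells among the 5 epithelial states, in both libraries. ATP synthase, which makes the ATP, took 0.812% and 0.855% of UMIs in fetal-like cells and 1.15% and 1.19% in cycling cells. Complex I, the entry point for NADH, took 1.31% and 1.35% in cycling cells and 1.05% and 1.40% in enterocyte-like cells. Complex IV, the oxidase, took 0.959% and 0.952% in fetal-like cells against 1.43% and 1.36% in Nrn1-led cells. Complex III took 0.402% and 0.406% in fetal-like cells and 0.463% and 0.628% in enterocyte-like cells. Atp5b, the catalytic beta subunit of ATP synthase, stood at 1246 and 1295 CPM in fetal-like, 1581 and 1771 CPM in cycling and 1629 and 1910 CPM in Nrn1-led cells, and in enterocyte-like cells at 1233 and 1864 CPM. Ndufa4, a complex IV subunit first assigned to complex I, stood at 770 and 673 CPM in fetal-like cells and between 948 and 1476 CPM in the other epithelial states.

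**Figure D2:**
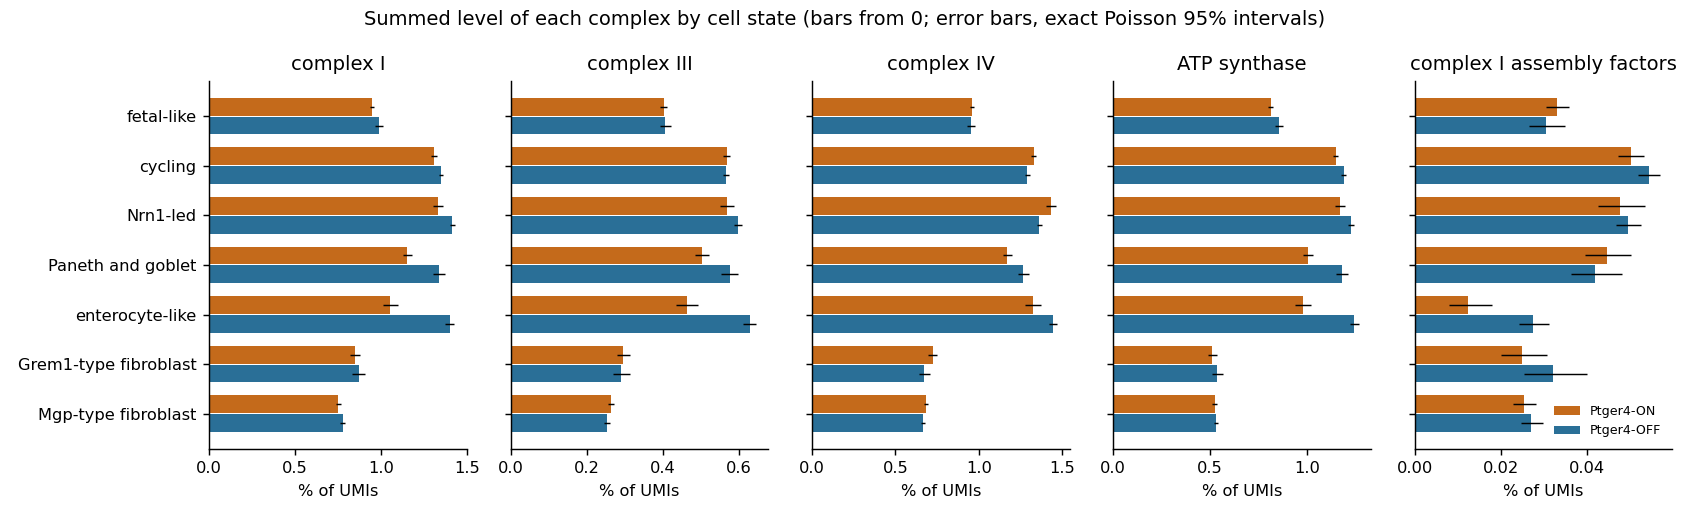
Summed level of each complex and of the complex I assembly factors (horizontal axes, percent of UMIs, each panel on its own scale from 0) in 7 cell states, with exact Poisson 95% intervals. The subunits of all 4 complexes are lowest in fibroblasts and, among epithelial states, in fetal-like cells, whereas the sum of the assembly factors is, among epithelial states, lowest in enterocyte-like cells, where in Ptger4-OFF it lies within counting error of fetal-like cells.

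In the epithelial-like class as a whole, oxidative phosphorylation genes were higher in Ptger4-OFF. They took 3.92% of UMIs in Ptger4-ON and 4.43% in Ptger4-OFF, a summed ratio of 1.13 (1.125 to 1.137). Of 81 members measured (at least 20 UMIs over both libraries), 62 were higher and 19 lower in Ptger4-OFF, with a median log2 ratio of 0.18 against -0.04 over all 11613 genes measured. At least 25% higher were 18 members (of all genes measured, 15.4%), and at least 20% lower, the same fold the other way, were 4 (of all genes, 22.3%). Among the 69 members with at least 100 CPM in either library these counts were 16 and 2, beside 12.9% and 13.1% of all genes at that level. The share of cells in the low fetal-like state also differed, 31.0% of epithelial-like cells in Ptger4-ON and 6.17% in Ptger4-OFF, while the Nrn1-led state held 25.2% and 46.1%. Inside single states the median log2 ratio of members was 0.02 in fetal-like, 0.02 in cycling, 0.06 in Nrn1-led, 0.17 in Paneth and goblet and 0.34 in enterocyte-like cells, and with equal weight for each state it was 0.12.

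The core subunits had the higher ratios. The list called core here held 16 genes and is wider than the subunits with redox centres or catalytic sites. Among them were the subunits of complex I that hold its redox centres, and Atp5a1, Atp5b and Atp5c1. The list also took in Uqcrc1, Uqcrc2 and Uqcrfs1 of complex III. From complex IV it took the nuclear subunits Cox4i1, Cox5a and Cox5b, which pack against the mitochondrial core of that complex. In the epithelial-like class 15 of 16 were higher in Ptger4-OFF, and their sum was 0.955% of UMIs in Ptger4-ON and 1.18% in Ptger4-OFF, a ratio of 1.237 (1.224 to 1.251). The other subunits had a summed ratio of 1.096 (1.089 to 1.103). Inside each of the 5 epithelial states the core sum was also higher in Ptger4-OFF, by 1.09 (1.06 to 1.12) in fetal-like, 1.12 (1.102 to 1.139) in cycling, 1.12 (1.09 to 1.15) in Nrn1-led, 1.18 (1.14 to 1.23) in Paneth and goblet and 1.37 (1.31 to 1.44) in enterocyte-like cells. The sum of the other subunits had ratios of 1.003, 0.9746, 0.9897, 1.122 and 1.193 in the same states. So in fetal-like, cycling and Nrn1-led cells the ratios of the core and the other subunits differed although the total of the members was close to equal.

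In complex I, 29 of 36 subunits were higher in Ptger4-OFF in epithelial-like cells and 12 were at least 25% higher (of all genes measured, 15.4%). Ndufv2, which holds an iron-sulfur cluster of the NADH-oxidising module, stood at 329 CPM in Ptger4-ON and 463 CPM in Ptger4-OFF, a ratio of 1.41 (1.33 to 1.49). Ndufs1, the largest subunit of that module, stood at 103 and 143 CPM (1.385, 1.251 to 1.536), but inside fetal-like cells its log2 ratio was -0.16. Also higher were Ndufa9 (1.36), Ndufb5 (1.33) and Ndufb10 (1.29), all accessory subunits. The opposite end held Ndufa3 (355 and 306 CPM, 0.861), Ndufb3 (0.949) and Ndufa1 (0.961), all small accessory subunits of the membrane arm, and, below 100 CPM, Ndufs5 (88.4 and 70.0 CPM, 0.792) and Ndufb4 (69.6 and 58.8 CPM, 0.845). Ndufv1, the core subunit that binds NADH, stood at 190 and 202 CPM, with an interval of the ratio (0.982 to 1.15) that includes 1.

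In complex III, 7 of 8 subunits were higher. Uqcrc2 (gene at chr7:120635176-120659524, plus strand, GRCm38), a core protein of the complex, stood at 432 and 617 CPM, a ratio of 1.426 (1.358 to 1.499), and the iron-sulfur protein Uqcrfs1 at 401 and 532 CPM (1.33, 1.26 to 1.40). Uqcrc1, the partner core protein, stood at 350 and 437 CPM, a log2 ratio of 0.32. The small subunit Uqcr11 was the exception, at 721 CPM in Ptger4-ON and 645 CPM in Ptger4-OFF (0.894, 0.857 to 0.932), although its log2 ratio was 0.066 inside Paneth and goblet and 0.15 inside enterocyte-like cells.

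Complex IV had the lowest summed ratio of the complexes, 1.08 (1.07 to 1.09) in epithelial-like cells, and inside fetal-like, cycling and Nrn1-led cells its ratio was 0.992, 0.972 and 0.953. Cox5a (1.20) and Cox4i1 (1.18), which contact the catalytic core, were higher, and Cox5b, which binds zinc, stood at 567 and 563 CPM. Cox7c (chr13:86044816-86046904, minus strand), a small subunit of the membrane part, was the lowest member of the complex, at 272 CPM in Ptger4-ON and 189 CPM in Ptger4-OFF (0.697, 0.648 to 0.750). In ATP synthase, Atp5c1, Atp5a1 and Atp5b of the rotary head were higher, with Atp5c1, the gamma subunit, at 841 and 1105 CPM (1.31, 1.27 to 1.36), Atp5a1 at 1118 and 1388 CPM (1.24) and Atp5b at 1426 and 1767 CPM (1.24). Atp5o, which links the head to the stalk, had a ratio of 1.31. Below 1 were Atp5k (414 and 314 CPM, 0.757), whose log2 ratio was 0.13 inside Paneth and goblet and 0.14 inside enterocyte-like cells, Atp5e, the epsilon subunit of the same rotary part (695 and 578 CPM, 0.831), whose log2 ratio was 0.12 and 0.19 inside those 2 states, and Atp5l, subunit g (72.5 and 54.4 CPM, 0.751). A processed copy, Atp5l-ps1, is listed in these tables, and nuclear subunit genes often have near-identical pseudogenes, so counts of Atp5l and of other short subunits depend on how reads shared with copies were treated, which the sources used here do not give.

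In fibroblast-like cells the total did not differ beyond counting error, while core subunits were again higher and several small subunits lower. Members took 2.28% of UMIs in Ptger4-ON and 2.27% in Ptger4-OFF, a ratio of 0.997 (0.984 to 1.01). Of 82 measured members 44 were higher and 38 lower, with a median log2 ratio of 0.02 against 0.02 over all genes measured. At least 25% higher were 6 (of all genes measured, 17.1%) and at least 20% lower 10 (of all genes, 18.3%). Among the 63 members with at least 100 CPM the counts were 4 and 6, beside 9.68% and 9.24% of all genes at that level. The 16 core subunits summed to a ratio of 1.119 (1.086 to 1.153), with 14 of 16 higher, and the other subunits to 0.965 (0.950 to 0.980). The core sum was higher in both Grem1-type (1.11, 1.03 to 1.20) and Mgp-type cells (1.12, 1.09 to 1.16).

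Among subunits with at least 100 CPM in either library the highest fibroblast ratios belonged to Ndufs7, a core subunit near the ubiquinone site (145 and 188 CPM, 1.301, 1.104 to 1.536), Ndufa8 (204 and 264 CPM, 1.29) and Ndufv2 (159 and 201 CPM, 1.27). Atp5c1 stood at 397 and 492 CPM (1.24, 1.12 to 1.37), and Uqcrfs1 stood at 158 and 195 CPM (1.23). Below that level the assembly factor Ndufaf3 had a ratio of 1.63 (1.12 to 2.38). The lowest ratio was again that of Cox7c, at 216 CPM in Ptger4-ON and 114 CPM in Ptger4-OFF (0.527, 0.443 to 0.625). Below 0.80 were also Atp5k (205 and 146 CPM, 0.714), Uqcr11 (372 and 275 CPM, 0.739), Ndufa1 (179 and 135 CPM, 0.754), Ndufa3 (331 and 253 CPM, 0.766) and Ndufc1 (386 and 307 CPM, 0.796). Ndufc1 stood at 422 and 442 CPM in epithelial-like cells. Cox5b, a core subunit by the rule, was lower in fibroblasts (322 and 273 CPM, 0.849). The epithelial and fibroblast values come from the same 2 libraries, so a difference between the libraries in handling enters both.

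**Figure D3:**
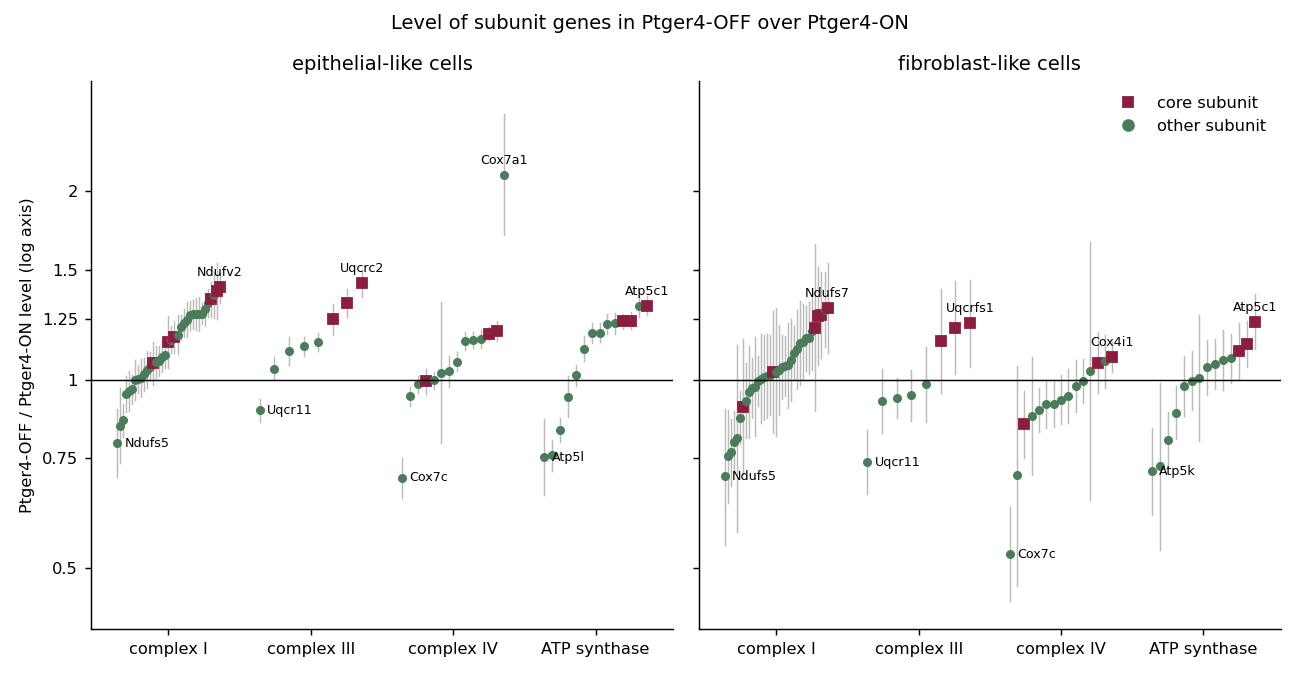
Level in Ptger4-OFF divided by level in Ptger4-ON (vertical axis, log scale) for the measured subunit genes of 4 complexes (1 is not shown) in both cell classes, sorted within each complex, with 95% counting intervals as grey lines (red squares, core subunits; green circles, other subunits). Most core subunits lie above 1 in both classes, while Cox5b, also on the core list, lies near 1 in epithelial-like and below 1 in fibroblast-like cells. Cox7c, Atp5k and Uqcr11 lie below 1 in both.

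Small subunits have short mRNAs, and among subunits the shortest transcripts had the lowest median ratio. Among subunits with at least 100 CPM, those with transcripts under 600 bases had a median log2 ratio of 0.00 in the epithelial-like and -0.11 in the fibroblast-like class (17 genes each). Those of 600 to 1000 bases had 0.23 (25 genes) and 0.08 (26 genes), and those of 1000 to 2000 bases 0.31 (19 genes, all higher) and 0.15 (16 genes), but those over 2000 bases had 0.16 (6 genes) and 0.06 (4 genes). Across all genes at that level, transcripts under 600 bases also stood lower in Ptger4-OFF, with a median of -0.20 in both classes (72 and 64 genes). There was no further increase with length there, with 0.08 and 0.12 at 600 to 1000 bases (257 and 229 genes), 0.05 and 0.10 at 1000 to 2000 bases (635 and 548 genes) and -0.01 and 0.02 above (1268 and 1133 genes). Across genes, which are not independent, Spearman's rho of ratio with length was 0.47 and 0.51 over these subunits (67 and 63 genes) and -0.13 and -0.16 over all genes at that level. The sum of the 6 RNA-quality genes also differed, with 5304 and 4450 CPM in epithelium and 16227 and 12259 CPM in fibroblasts. Cox7c has a transcript of 540 bases, Atp5k of 371 and Uqcr11 of 445, against 1896 for Uqcrc2 and 1697 for Ndufv2. Cytosolic ribosomal protein genes, which also have short mRNAs, took 9.67% of epithelial and 11.3% of fibroblast UMIs in Ptger4-ON, and 9.09% and 10.3% in Ptger4-OFF. Core subunits are among the longer transcripts, so the part of transcript length, and of these other values, in the core result was not tested.

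**Figure D4:**
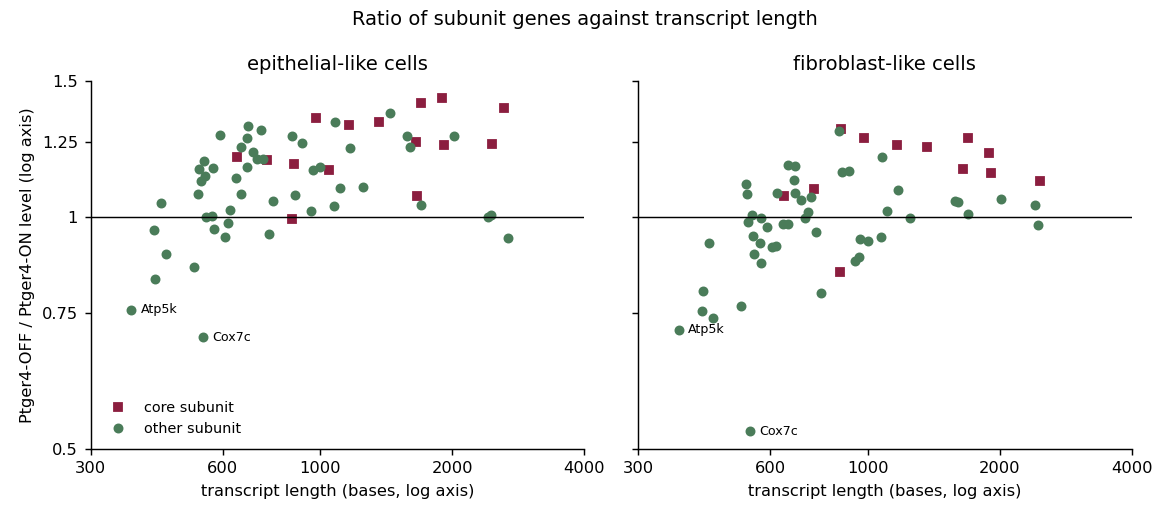
Level in Ptger4-OFF divided by level in Ptger4-ON (vertical axis, log scale) against transcript length (horizontal axis, bases, log scale) for subunit genes with at least 100 CPM in either library (1 is not shown). Cox7c, Atp5k and Uqcr11, among the genes furthest below 1, have transcripts under 600 bases, and the core subunits (red squares) are mostly longer. Ndufc1, at 0.796 in fibroblast-like cells, has a transcript of 782 bases.

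Several complex IV subunits have alternative isoforms known from muscle, lung or low oxygen, and these were split between the cell types. Cox7a1, the heart and muscle form of subunit 7a, stood at 186 CPM (Ptger4-ON) and 183 CPM (Ptger4-OFF) in enterocyte-like cells. In the other 4 epithelial states it ranged from 6.95 to 35.3 CPM, with fetal-like cells lowest in each library. It was seen in 11 of 25 and 58 of 115 enterocyte-like cells. With every cell thinned to 1000 UMIs the share expected to hold a Cox7a1 UMI was 12.5% and 15.7% of enterocyte-like cells (23 and 111 cells deep enough), against 1.59% and 3.67% of all epithelial-like and 0.163% and 0.728% of fibroblast-like cells. Over the whole class it stood at 19.9 and 42.2 CPM, a ratio of 2.12 (1.705 to 2.66), and enterocyte-like cells gave 3.99% of the class UMIs in Ptger4-ON and 11.5% in Ptger4-OFF. Inside enterocyte-like cells the log2 ratio was -0.04. Its partner Cox7a2 stood at 943 and 1178 CPM in enterocyte-like cells and between 770 and 1169 CPM in the other epithelial states.

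The isoforms Ndufa4l2 and Cox6a2 were higher in fibroblast-like than in epithelial-like cells. The fibroblast-like class also held smooth muscle markers (1487 and 1110 CPM) and pericyte markers (29.6 and 7.07 CPM). In the epithelial-like class the smooth muscle markers stood at 9.04 and 5.52 CPM. Whether cells with such markers carried these isoforms was not tested. Ndufa4l2, a relative of Ndufa4 that is induced by hypoxia, had 180 and 165 UMIs in fibroblast-like cells (102 and 89.7 CPM) and 3 and 10 UMIs in epithelial-like cells. Its fibroblast level was 189-fold (63.6 to 925) and 68.2-fold (36.2 to 145) the epithelial one, and it stood higher in Mgp-type (119 and 95.9 CPM) than in Grem1-type cells (39.0 and 49.3 CPM). Cox6a2, the muscle form of subunit 6a, had 61 and 45 UMIs in fibroblast-like and 1 and 5 in epithelial-like cells. Cox4i2, the lung form of subunit 4, had 9 and 9 UMIs against 1 and 0, where 0 allows up to 0.395 CPM, and did not reach the 20 UMIs needed to be measured. Ndufa4l2 UMIs were found in 31.6% and 26.7% of fibroblast-like cells, 9.43% and 7.84% with thinning, against 0.510% and 0.750% of epithelial-like cells (0.0842% and 0.0973% with thinning), at median depths of 4613 and 4474 UMIs in the fibroblast-like and 4621 and 4160 in the epithelial-like class. The partners Ndufa4, Cox6a1 and Cox4i1 were higher in each of the 5 epithelial states than in both fibroblast types, with Cox6a1 as an example (1243 and 1440 CPM, against 687 and 683 CPM in fibroblasts). The testis form Cox6b2 stood at 19.0 and 19.5 CPM in epithelial-like and 21.1 and 21.7 CPM in fibroblast-like cells, and Cox8b had 1 UMI in all.

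**Figure D5:**
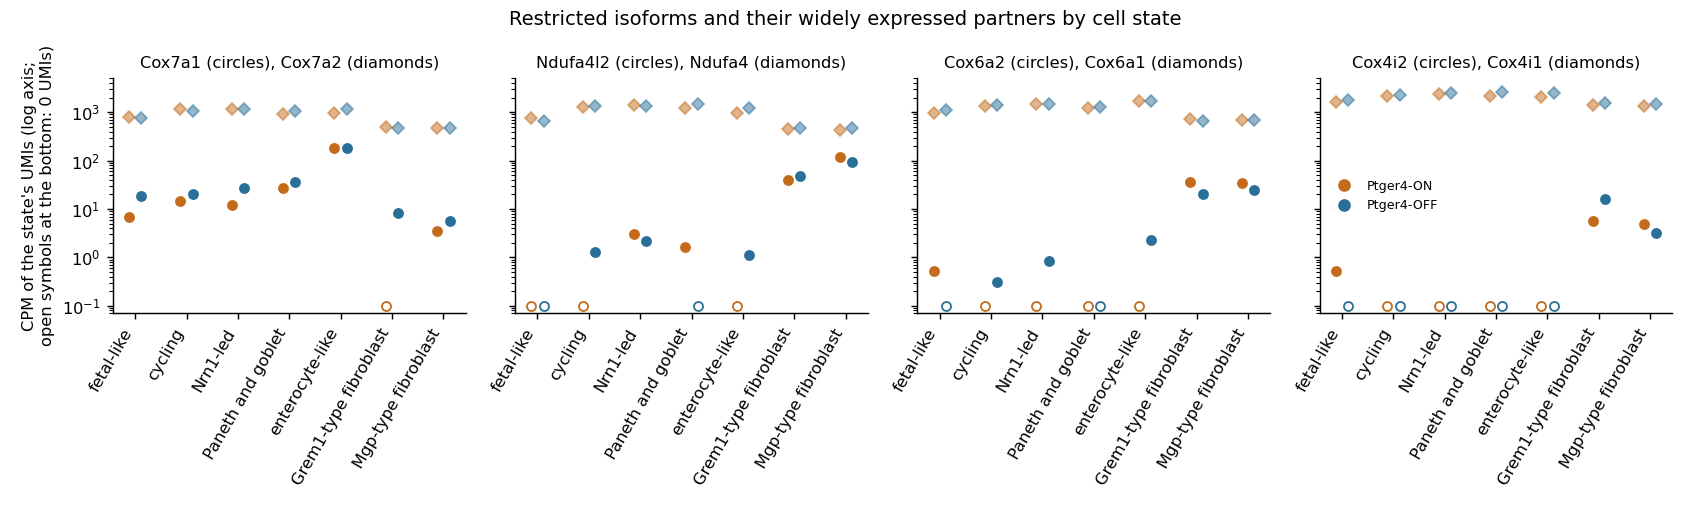
Level (vertical axis, CPM, log scale) of 4 restricted isoforms (circles) and their widely expressed partners (diamonds) in 7 cell states of both libraries, with open symbols at the bottom for 0 UMIs. Cox7a1 is highest in enterocyte-like cells, at 186 and 183 CPM, and Ndufa4l2 and Cox6a2 are highest in fibroblasts, while Cox4i2 has too few UMIs to be measured.

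The complex I assembly factors followed another order than the subunits. All 7 were lowest in enterocyte-like cells on the mean of both libraries, where their sum was 0.0122% and 0.0274% of UMIs, against 0.0500% and 0.0542% in cycling cells. The fetal-like sum was 2.69-fold (1.83 to 4.12) the enterocyte-like one in Ptger4-ON, but 1.11-fold in Ptger4-OFF, with an interval (0.917 to 1.34) that includes 1. In Ptger4-OFF alone 1 of the 7 was lower in fetal-like than in enterocyte-like cells, at a log2 ratio of -0.51, and 6 were higher. Of all genes measured there, 4925 of 7736 were higher in fetal-like cells. The median log2 ratio of fetal-like to enterocyte-like cells over the 7 was 1.19 in Ptger4-ON and 0.28 in Ptger4-OFF. Over all genes measured it was 0.40 and 0.26, so in Ptger4-OFF the factors lay close to the median gene. Ndufaf2, which acts late in assembly, stood at 22.7 and 46.8 CPM in enterocyte-like and 131 and 131 CPM in cycling cells. Ndufaf5, a hydroxylase of Ndufs7, stood at 4.53 and 12.6 CPM against 40.3 and 36.4 CPM, and Ndufaf7, a methyltransferase that acts on the complex, at 4.53 and 26.3 CPM against 43.5 and 48.1 CPM. The Ptger4-ON enterocyte values rest on 1 UMI each of Ndufaf5 and Ndufaf7 and on 5 of Ndufaf2. Ndufaf6, needed for an early assembly step, stood at 40.7 and 54.8 CPM over the class (1.35, 1.14 to 1.59) with a log2 ratio of -0.15 inside fetal-like cells. For the complex I subunits the enterocyte-like cells of Ptger4-OFF stood at 1.40% of UMIs, beside 1.35% in cycling and 1.41% in Nrn1-led cells, so subunit and assembly mRNAs were ordered differently there.

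Members were higher in epithelium than in fibroblasts. The sum was 1.72-fold (1.70 to 1.74) higher in Ptger4-ON and 1.95-fold (1.93 to 1.97) in Ptger4-OFF, with a median log2 ratio of 0.82 and 0.93 against 0.24 and 0.21 over all genes measured. At least 2-fold higher in epithelium were 27 of 83 members in Ptger4-ON (of all genes, 26.3%) and 40 of 83 in Ptger4-OFF (of all genes, 26.6%). Among members with at least 100 CPM in either class these were 24 of 70 and 36 of 69, beside 24.2% and 25.5% of all genes at that level. Among members at that level in both libraries Uqcrc2 had the highest ratio, 3.13 (2.74 to 3.58) and 3.68 (3.28 to 4.145), followed by Uqcrc1 (3.01 and 3.27), Atp5a1 (2.82 and 3.15), the assembly factor Ndufaf4 (2.99 and 2.96) and Ndufv1 (2.49 and 2.92). Cox7a2l, placed with complex IV by its symbol, was higher in fibroblasts, by 1.31-fold (1.21 to 1.42) and 1.20-fold (1.11 to 1.29). Ndufa7, Ndufa2 and Ndufa13, accessory subunits of complex I, had epithelial to fibroblast ratios between 0.899 and 1.03.

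Other genes of the pathway were taken as whole lists and differed by list. Complex II, which lies outside the rule, had 4 of 4 genes higher in Ptger4-OFF in both classes, summed from 1260 to 1646 CPM in epithelial-like and from 501 to 635 CPM in fibroblast-like cells, with 3 of 4 at least 25% higher in each class (of all genes measured, 15.4% and 17.1%). Its iron-sulfur subunit Sdhb had a ratio of 1.40 (1.33 to 1.48) in epithelial-like cells, and the membrane anchor Sdhc 1.30. Of the electron carriers 6 of 7 were higher in epithelial-like cells, 5 of them by at least 25%, with Etfdh, which passes electrons from fatty acid oxidation to ubiquinone, at 1.80 (1.52 to 2.14) and the ubiquinone synthesis protein Coq9 at 1.74 (1.55 to 1.96). The tricarboxylic acid cycle had 12 of 13 genes higher in epithelial-like cells, 7 of them by at least 25%, among them Mdh2 (1.43) and Idh3g (1.37). In fibroblast-like cells 7 of 13 were higher, 2 by at least 25%, near the share of all genes (17.1%). Mitochondrial ribosomal proteins were higher for 62 of 75 and 58 of 75 genes but at least 25% higher for 5 of 75 in epithelial-like cells, below the share of all genes, and for 18 of 75 in fibroblast-like cells. Assembly factors of complexes III to V were higher for 18 of 23 and 14 of 21 genes. By at least 25% it was 4 and 3 of them, near the shares of all genes (15.4% and 17.1%). The sum of these assembly factors in fibroblast-like cells stood at 1409.9 and 1349 CPM.

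Mitochondrially encoded subunits, the partners of the nuclear ones in the same complexes, stood at 15613 CPM in Ptger4-ON and 23938 CPM in Ptger4-OFF in epithelial-like cells. All 7 measured were higher, among them mt-Cytb of complex III and mt-Nd1 of complex I (both 1.64, 1.62 to 1.67). In fibroblast-like cells 5 of 8 were higher and the sum stood at 7149 and 7722 CPM. The median log2 ratio of these 8 was 0.04, against 0.02 over all genes measured in that class. Inside fetal-like cells their sum was 0.839% and 1.17% of UMIs and inside cycling cells 1.94% and 2.50%, so they were higher in Ptger4-OFF in states where the nuclear sum was close to equal. Of the regulators of mitochondrial biogenesis 9 of 11 were higher in epithelial-like cells, with the coactivators Ppargc1b at 24.0 and 32.1 CPM (1.34, 1.08 to 1.66) and Ppargc1a at 9.58 and 12.8 CPM (1.33, 0.943 to 1.90). The median log2 ratio of these 11 was 0.15, against -0.04 over all genes measured in that class. Of the import proteins, 10 of 17 were higher in epithelium and 8 of 16 in fibroblasts, none by at least 25%. Their median log2 ratios were 0.02 and -0.02, beside -0.04 and 0.02 over all genes measured. Their sums were 2948 and 2934 CPM in epithelium, and 2001 and 1876 CPM in fibroblasts.

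Across cells of 1 state, cells with a larger share of ribosomal protein UMIs also had a larger share of member UMIs. Spearman correlations ran from 0.30 to 0.79 over the 7 states and 2 libraries (25 to 553 cells each). For the member share against the share of mitochondrially encoded UMIs the sign differed between states. It was 0.54 and 0.43 in fetal-like cells (182 and 74 cells), and -0.26 and -0.29 in cycling (162 and 369 cells) and -0.37 and -0.24 in Nrn1-led cells (148 and 553 cells). These are descriptions over cells of the same library, whose shares have a common total and depend on depth.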

How the data were processed

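Each of the 2 Drop-seq libraries is a table of unnormalized counts deposited by the authors, 1 row per gene and 1 column per barcode. That counts are of molecules follows from the protocol per the labels. STAR 2.6 and mm10 are named in the submitters' processing notes. How reads were counted, with which annotation and how reads shared between gene copies were treated is not stated there. The tables held 908 and 1599 barcodes with 7408303 and 9490205 counts. Barcodes with under 300 genes or over 20% mitochondrial UMIs were dropped, then 6 and 4 doublets called by Scrublet, and both libraries were clustered together (scanpy 1.11.5, 2000 variable genes, 30 components, 15 neighbours, Leiden resolution 0.5). Clusters were named from marker lists.

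UMIs of a class or state were summed and divided by their total. Sums have exact Poisson and ratios exact conditional binomial 95% intervals. A count of 0 allows up to 3 counts. Log2 ratios used 0.5 added per count, and a gene was called measured from 20 UMIs over the pair compared. With 1 library per condition a fixed fold stood in for a call. The ratios and their intervals were run on simulated Poisson counts with planted folds. That simulation holds no variation between libraries or cells, so it checks counting error only. Coordinates and lengths (median of APPRIS principal transcripts) are from GENCODE vM21, promoters from RefSeq.

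Members, lists and tests were chosen with earlier results of these data known. Named genes are core subunits, alternative isoforms with partners, the 3 highest and 3 lowest ratios of each complex and class from 100 CPM, the 5 highest and 5 lowest epithelial to fibroblast ratios, the 5 widest ranges over states, and 2 genes of other lists. Ndufa9, Ndufb5, Ndufb10, Ndufb4, Ndufs5, Ndufaf3, Atp5l and Ndufa4 were named after their values were seen. The values of 1 core subunit are not reported here, though sums include it. Alternatives were other cell filters, clusterings, scalings (TMM from edgeR 4.0.16 in R 4.3.3, and median-of-ratios), barcode sets and thresholds.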

Additional observations from a re-analysis of the deposited data

Results flagged for a closer look

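The pseudogene Atp5l-ps1, which the choice of members left out, had 7 UMIs in Ptger4-ON and 4 UMIs in Ptger4-OFF over the kept cells, above the 3 counts that a count of 0 allows.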

How the results depend on the processing

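The 20 alternatives that do not look inside single clusters kept the median log2 ratio of members in epithelial-like cells positive, from 0.12 to 0.24. It was 0.24 with median-of-ratios factors, 0.24 with equal weight for each cell and 0.12 with equal weight for each cluster, and inside clusters it was 0.063 (Nrn1-led), 0.021 (cycling), 0.34 (enterocyte-like) and 0.016 (fetal-like). The 18 members at least 25% higher there became 28 with equal weight for each cell, 44 at a threshold of 1.1-fold, 1 at 1.5-fold and 9 with equal weight for each cluster, and inside clusters 9 (Nrn1-led), 5 (cycling), 41 (enterocyte-like) and 6 (fetal-like). The 4 lower members became 8 at 1.1-fold, 0 at 1.5-fold and 1 with equal weight for each cluster, and inside the same clusters 7, 11, 1 and 7. In fibroblast-like cells the 6 higher members became 10 with equal weight for each cell, 24 at 1.1-fold and 1 at 1.5-fold, and the 10 lower ones 21 and 2 at these thresholds. The median epithelial to fibroblast log2 ratio in Ptger4-ON was 0.67 with median-of-ratios factors. Among named genes past the 25% threshold the log2 ratio changed sign for Atp5k inside Paneth and goblet (0.13) and enterocyte-like cells (0.14), for Cox7a1 inside enterocyte-like cells (-0.038), and inside fetal-like cells for Ndufaf6 (-0.15) and Ndufs1 (-0.16). Smaller values also changed sign, among them Atp5e (up to 0.19), Uqcr11 (up to 0.15) and the summed log2 ratio of complex IV (-0.069, -0.041 and -0.011 inside Nrn1-led, cycling and fetal-like cells). The causes of these changes were not tested. The summed log2 ratio of core subunits was positive under each of its alternatives, from 0.12 to 0.45 in epithelial-like and from 0.13 to 0.20 in fibroblast-like cells. No paired analysis was possible because each condition has 1 library. Genes under about 100 CPM have wide counting intervals, and the 25 enterocyte-like cells of Ptger4-ON limit each comparison inside that state.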
